A study of Homo sapiens with 4 samples.

Results

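The genes described are 10 Notch receptors, ligands and HES or HEY factors among 58884 Ensembl genes of 1 table of TPM values. They are NOTCH1, NOTCH2, NOTCH3, JAG1, JAG2, HES1, HES4, HES7, HEY1 and HEYL, picked by symbol from the pathway with their values in all 4 libraries known. Their levels and ratios are therefore given as a description, with no test. The libraries hold RNA of 2 human thyroid cancer cell lines, 1 library per group: 8505C with CRABP1 overexpression, 8505C with the empty vector, FTC-133 with CRABP1 overexpression and FTC-133 with the empty vector. 8505C is an anaplastic and FTC-133 a follicular thyroid carcinoma line, and CRABP1 is a cytoplasmic carrier of retinoic acid. All groups were transfected and share Trizol extraction. The labels state neither whether the transfection was stable or transient, nor whether the cells were a clone or a pool, nor whether the 2 libraries of a line came from separate cultures.

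Notch receptors are cut on contact with a ligand of the Jagged or Delta family on a neighbouring cell. The freed intracellular part enters the nucleus, joins the DNA-binding protein RBPJ and a Mastermind coactivator, and switches on genes such as HES1, HEY1 and HEYL. HES and HEY proteins are basic helix-loop-helix repressors, and many act through corepressors of the TLE family. HES7 is known for its oscillation in the segmentation clock of the mouse embryo.

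The promoters of HES1, HES4, HES7 and HEYL are shown because HES4 and HES7 had the highest CRABP1 to vector ratios of the 10 genes, HES1 is the textbook target, and HEYL was read in a single line. Each run holds 250 bases before and 50 after the annotated start on the gene's own strand, from RefSeq on GRCh38.p14. Capitals mark the core of the RBPJ motif, TGGGAA, or its reverse complement.
HES1: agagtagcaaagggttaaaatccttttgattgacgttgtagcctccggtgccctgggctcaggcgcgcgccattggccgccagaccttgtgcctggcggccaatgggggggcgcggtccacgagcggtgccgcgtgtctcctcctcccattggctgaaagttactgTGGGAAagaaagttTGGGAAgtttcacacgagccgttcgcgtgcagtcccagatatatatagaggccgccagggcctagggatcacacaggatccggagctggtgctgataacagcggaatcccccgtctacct
HES4: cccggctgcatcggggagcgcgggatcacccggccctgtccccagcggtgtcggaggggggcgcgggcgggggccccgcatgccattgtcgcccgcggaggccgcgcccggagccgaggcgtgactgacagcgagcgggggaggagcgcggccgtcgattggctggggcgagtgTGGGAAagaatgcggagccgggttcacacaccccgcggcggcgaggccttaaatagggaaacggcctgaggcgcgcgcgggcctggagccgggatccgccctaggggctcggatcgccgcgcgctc
HES7: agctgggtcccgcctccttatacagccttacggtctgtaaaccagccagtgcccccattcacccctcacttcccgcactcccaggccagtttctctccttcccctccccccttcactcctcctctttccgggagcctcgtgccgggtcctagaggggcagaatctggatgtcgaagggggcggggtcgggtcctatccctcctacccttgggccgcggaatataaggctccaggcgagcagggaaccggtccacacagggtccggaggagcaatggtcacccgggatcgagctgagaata
HEYL: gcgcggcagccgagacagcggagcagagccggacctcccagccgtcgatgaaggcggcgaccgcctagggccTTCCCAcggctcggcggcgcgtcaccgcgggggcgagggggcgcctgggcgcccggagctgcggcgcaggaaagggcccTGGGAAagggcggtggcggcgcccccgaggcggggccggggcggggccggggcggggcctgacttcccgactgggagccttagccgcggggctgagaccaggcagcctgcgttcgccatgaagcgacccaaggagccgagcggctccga
The windows are chr3:194135898-194136197 on the plus strand for HES1, and chr1:1000048-1000347, chr17:8124057-8124356 and chr1:39639594-39639893 on the minus strand for HES4, HES7 and HEYL. The HES1 window holds 2 matches, which begin 84 and 70 bases before the start. In HES4 the match begins 76 bases before the start. HES1 and HES4 share the run tgTGGGAAagaa of 12 bases around it. HEYL holds 2 matches, beginning 178 and 99 bases before the RefSeq start, the farther one on the opposite strand. In the GENCODE annotation used for gene lengths, HEYL starts farther upstream, at position 39639945. By that annotation the whole HEYL window, with both matches, lies inside the gene and not before its start. HES7 has 0 matches on either strand in these letters. Of the 9 genes matched in the promoter table, 3 held the motif, against 24% of 35097 promoters of the same length. These 3 also held the longer form GTGGGAA, which 6.25% of those promoters have and which contains the core. A retinoic acid receptor half-site, searched in the exact letters AGGTCA on both strands, was found in 0 of the 9 windows and in 13.8% of all promoters. Whole receptor elements and variant letters were not searched. A match of letters is a description and not a binding site.

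Reads counted to genes came to about 19304273 for 8505C with CRABP1, 19174558 for 8505C with vector, 20309225 for FTC-133 with CRABP1 and 20331466 for FTC-133 with vector. These totals, and every read number below, were recovered from TPM and gene length, so they are approximate and leave out reads not counted to a gene. CRABP1 itself reached 537 TPM in 8505C and 385 TPM in FTC-133 with the overexpression vector and was listed at 0 in both vector libraries, at least 905-fold and 694-fold above the level of 3 reads per library. Of 8 thyroid follicular markers, the transcription factor NKX2-1 was at 113 and 118 TPM in 8505C and 17.7 and 44.7 TPM in FTC-133, with CRABP1 and with vector in each line. PAX8 was at 0.161 and 0.240 TPM in 8505C and 143 and 100 TPM in FTC-133 in the same order. The differentiation genes TG, TSHR and SLC5A5 were below 1 TPM in all 4 libraries. Among markers of other cell types, the leukocyte gene PTPRC stayed at or under 0.194 TPM and CD3E at or under 0.0693 TPM, whereas the endothelial cadherin CDH5 was at 97.9 and 103 TPM and CD14 at 28.6 and 56.5 TPM in 8505C with CRABP1 and with vector. The other endothelial markers were low in 8505C, in the same order: PECAM1 at 2.19 and 3.68, VWF at 0.0380 and 0.170, KDR at 0.210 and 0.719 TPM. Of the epithelial markers in 8505C, the keratins KRT8 and KRT18 were at 496 and 564 and at 869 and 1039 TPM. EPCAM was at 0.235 and 0.546 TPM there, and CDH1 was listed at 0. Mitochondrially encoded genes held 25.9% and 26.4% of TPM in 8505C and 25.9% and 28.6% in FTC-133, with CRABP1 and with vector. In bulk RNA, fewer cells of a kind and less RNA per cell cannot be told apart.

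Among the receptors, NOTCH2 dominated in every library. TPM values count reads per gene length, so levels of different genes can be set side by side. NOTCH2 stood at 113 TPM in 8505C with CRABP1 and 96.3 TPM in 8505C with vector, and at 185 TPM in FTC-133 with CRABP1 and 201 TPM in FTC-133 with vector. It made up 84.3% and 83.5% of the summed TPM of NOTCH1, NOTCH2 and NOTCH3 in 8505C and 93.4% and 90.2% in FTC-133, with CRABP1 and with vector. The ratio of CRABP1 to vector was 1.17 in 8505C (95% counting interval 1.14 to 1.20) and 0.919 in FTC-133 (0.900 to 0.938). NOTCH2 is nearly identical in its front part to the NOTCH2NL genes, so reads could have been split between them.

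NOTCH1 was at 15.1 TPM in 8505C with CRABP1 and 15.6 TPM with vector, a ratio of 0.967 (0.877 to 1.07). In FTC-133 it was at 5.17 TPM with CRABP1 and 6.91 TPM with vector, 1.34-fold lower with CRABP1 (1.14 to 1.56). Both 8505C libraries lay above both FTC-133 libraries.

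NOTCH3 differed in opposite ways in the lines. In 8505C it was at 5.87 TPM from about 280 reads with CRABP1 and 3.41 TPM from about 163 reads with vector, a ratio of 1.72 (1.42 to 2.10). FTC-133 had 7.82 TPM from about 387 reads with CRABP1 and 14.9 TPM from about 764 reads with vector, 1.91-fold lower (1.69 to 2.17). The vector library of FTC-133 was the highest of the 4 and the vector library of 8505C the lowest, so the gap between the lines was 4.39-fold with vector and 1.33-fold with CRABP1. NOTCH3 is known as a receptor of vessel wall and fibroblast-like cells. The summed TPM of 4 fibroblast markers, COL1A1, DCN, LUM and PDGFRB, was 12.4 and 6.89 in 8505C and 230 and 433 in FTC-133, with CRABP1 and with vector. The single markers did not all run like NOTCH3. In FTC-133 the lower sum came from the collagen gene COL1A1, at 175 and 388 TPM with CRABP1 and with vector, while PDGFRB had a ratio of 1.92 (1.69 to 2.19), LUM one of 1.03 (0.916 to 1.16) and DCN one of 1.19 (0.651 to 2.43). In 8505C the ratio was 0.608 for COL1A1 (0.393 to 0.930), against 3.23 for LUM, 2.03 for DCN and 1.10 for PDGFRB. None of the 4 was listed at 0 in any library, and 3 or 4 of 4 reached 1 TPM in each. Their part in the NOTCH3 values was not tested.

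**Figure D1:**
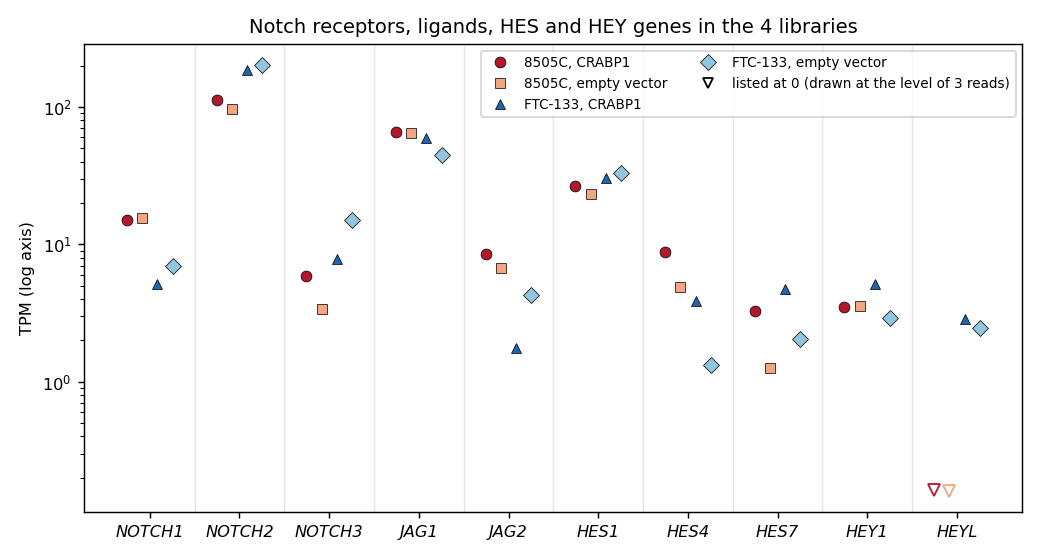
TPM of the 10 genes on a log axis, with 1 point per library and the 4 libraries side by side within each gene. NOTCH2, JAG1 and HES1 are the highest in each library; open triangles mark HEYL in 8505C, listed at 0 and drawn at the level of 3 reads, 0.162 TPM with CRABP1 and 0.161 TPM with vector.

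Of the ligands, JAG1 was the main one. It was at 65.7 TPM in 8505C with CRABP1 and 64.5 TPM with vector, a ratio of 1.02 (0.968 to 1.07). In FTC-133 it was at 58.9 TPM with CRABP1 and 44.4 TPM with vector, a ratio of 1.33 (1.26 to 1.40). JAG1 held 88.6% and 90.5% of the summed TPM of JAG1 and JAG2 in 8505C and 97.1% and 91.2% in FTC-133, with CRABP1 and with vector. The antisense gene that overlaps JAG1 was at most 0.461 TPM in any library. The microRNA gene MIR6870, which lies within JAG1 on the same strand, was at 3.29 TPM in 8505C and 3.16 TPM in FTC-133 with CRABP1 and listed at 0 in both vector libraries. A microRNA gene is so short that values of this size can rest on a single read. No difference between the libraries is therefore read from them.

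JAG2, the second Jagged ligand, again went in opposite ways. In 8505C it was at 8.48 TPM with CRABP1 and 6.73 TPM with vector, a ratio of 1.26 (1.05 to 1.51). The FTC-133 libraries had 1.75 TPM from about 59 reads with CRABP1 and 4.28 TPM from about 149 reads with vector, 2.45-fold lower (1.80 to 3.37). The FTC-133 library with CRABP1 was the lowest of the 4, and both 8505C libraries lay above both FTC-133 libraries. The 3 Delta ligands were low: DLL3 ranged from 1.81 to 3.16 TPM, DLL4 from 0.0773 to 0.705 TPM, and DLL1 was at 0.248 and 0.144 TPM in FTC-133 with CRABP1 and with vector and listed at 0 in 8505C.

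HES1 spanned the narrowest relative range of the 10 genes over the 4 libraries. It was at 26.6 TPM in 8505C with CRABP1 and 23.2 TPM with vector, a ratio of 1.15 (0.963 to 1.37). In FTC-133 it was at 30.4 TPM with CRABP1 and 33.0 TPM with vector, a ratio of 0.920 (0.789 to 1.07). Both intervals include 1, which does not show that the levels were equal.

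HES7 was higher with CRABP1 in both lines, from few reads. In 8505C it was at 3.25 TPM from about 31 reads with CRABP1 and 1.25 TPM from about 12 reads with vector, a ratio of 2.59 (1.29 to 5.54). In FTC-133 cells the level was 4.74 TPM from about 47 reads with CRABP1 and 2.05 TPM from about 21 reads with vector, a ratio of 2.31 (1.35 to 4.07). Both CRABP1 libraries lay above both vector libraries. On the scale of log2(TPM + 1), which pulls in the ratios of low genes, the values were 0.91 in 8505C and 0.91 in FTC-133. By the smaller of these HES7 ranked 1 of 12287 protein-coding genes that had 20 reads or more in each line, CRABP1 left out. It was among the genes picked with this ranking in view.

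HES4, a HES gene with no direct counterpart in the mouse, was also higher with CRABP1 in both lines. It was at 8.82 TPM from about 50 reads in 8505C with CRABP1 and 4.92 TPM from about 28 reads with vector, a ratio of 1.79 (1.11 to 2.95). In FTC-133 it was at 3.90 TPM from about 23 reads with CRABP1 and 1.31 TPM from about 8 reads with vector, a ratio of 2.97 (1.28 to 7.67). Here the lines separated too, since the lower 8505C library lay above the higher FTC-133 library. The log2 ratios of TPM + 1 were 0.73 and 1.08 in 8505C and FTC-133, and the rank by the smaller was 11 of 12287. Like HES7, HES4 was picked with its ratios known. The promoter match shown above is in HES4 and not in HES7.

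HEY1 was at 3.48 TPM in 8505C with CRABP1 and 3.53 TPM with vector, a ratio of 0.986 (0.672 to 1.45). FTC-133 cells had 5.11 TPM from about 87 reads with CRABP1 and 2.90 TPM from about 51 reads with vector, a ratio of 1.76 (1.23 to 2.54). The FTC-133 library with CRABP1 stood above the other 3, which lay between 2.90 and 3.53 TPM. HEYL was at 2.88 TPM from about 56 reads in FTC-133 with CRABP1 and 2.48 TPM from about 49 reads with vector, a ratio of 1.16 (0.789 to 1.77). In 8505C it was listed at 0 in both libraries, where 3 reads would give 0.162 TPM with CRABP1 and 0.161 TPM with vector.

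**Figure D2:**
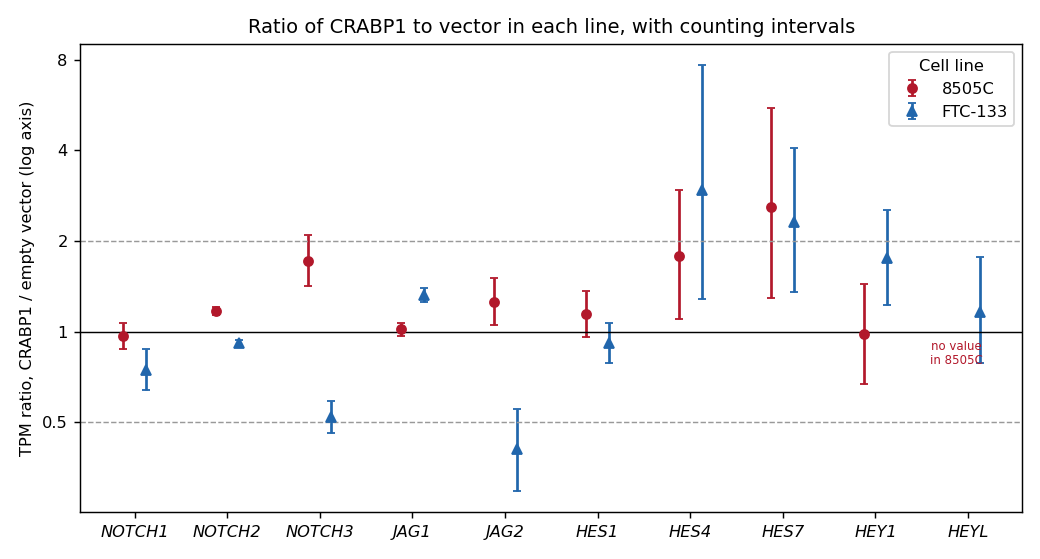
Ratio of TPM with CRABP1 to TPM with empty vector for each gene on a log axis, in 8505C (circles) and FTC-133 (triangles), with 95% counting intervals; dashed lines mark ratios of 2 and 0.5. HES7 and HES4 lie above 1 in both lines, and NOTCH3 and JAG2 lie above 1 in 8505C and below 1 in FTC-133.

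By a 2-fold rule on TPM + 1, 0 of 9 measured genes were higher and 0 lower in 8505C, where 3.7% and 4.07% of 17561 genes averaging 1 TPM or more were. In FTC-133 the counts were 1 of 10, HES4, and 0 of 10, where 6.02% and 4.92% of 19899 genes passed. Among protein-coding genes with 20 reads or more in the comparison, a set that differs in both biotype and filter, the shares were 0.226% higher and 0.499% lower in 8505C and 2.01% and 1.4% in FTC-133. By the plain TPM ratio, HES7 was 2-fold higher in 8505C, where 1.15% of 12818 such protein-coding genes passed upward and 1.86% downward. In FTC-133 HES4 and HES7 were 2-fold higher and JAG2 lower, where 4.4% and 3.36% of 13665 such genes were. Counting intervals lay above 1 for 5 of 9 genes in 8505C (NOTCH2, NOTCH3, JAG2, HES4 and HES7) and below 1 for 0 of 9, against 22.2% and 15.8% of the protein-coding genes. In FTC-133 they lay above 1 for 4 of 10 genes (JAG1, HES4, HES7 and HEY1) and below 1 for 4 of 10 (NOTCH1, NOTCH2, NOTCH3 and JAG2), against 32.8% and 21.5%. Intervals above 1 in both lines were found for 2 of 9 genes, HES4 and HES7, and for 8.61% of 12288 protein-coding genes that had 20 reads or more in each line. An interval above 1 in 8505C together with an interval below 1 in FTC-133 was found for 3 of 9 genes, NOTCH2, NOTCH3 and JAG2, and for 5.83% of the 12288. Because the 10 genes were chosen with these ratios known, the shares are given side by side only. The difference between the lines in the response to CRABP1 was not tested, as each line holds 1 library per transfection.

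Between the lines, NOTCH1 and HES4 were higher and HEYL lower in 8505C by at least 2-fold in both the CRABP1 pair and the vector pair of libraries. These were 2 and 1 of the 10 genes, where 7.65% of 19513 measured genes were higher and 16% lower by the same rule. NOTCH1 was 2.92-fold higher in the CRABP1 pair (2.55 to 3.36) and 2.26-fold higher in the vector pair (2.00 to 2.56). HES4 was 2.26-fold higher in the CRABP1 pair (1.35 to 3.88) and 3.75-fold higher in the vector pair (1.66 to 9.51). HEYL was at least 17.8-fold and 15.4-fold lower, taking the level of 3 reads per library for 8505C. NOTCH2 was lower in 8505C in both pairs, 1.64-fold with CRABP1 (1.60 to 1.68) and 2.09-fold with vector (2.04 to 2.14). JAG2 was higher in both, 4.85-fold with CRABP1 (3.65 to 6.54) and 1.57-fold with vector (1.27 to 1.95), so its gap was wider with CRABP1, whereas that of NOTCH3 was wider with vector. HEY1 had no common direction, at ratios of 0.682 with CRABP1 and 1.22 with vector. JAG1, HES1 and HES7 had ratios of 1.11, 0.877 and 0.686 in the CRABP1 pair and 1.45, 0.703 and 0.612 in the vector pair.

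**Figure D3:**
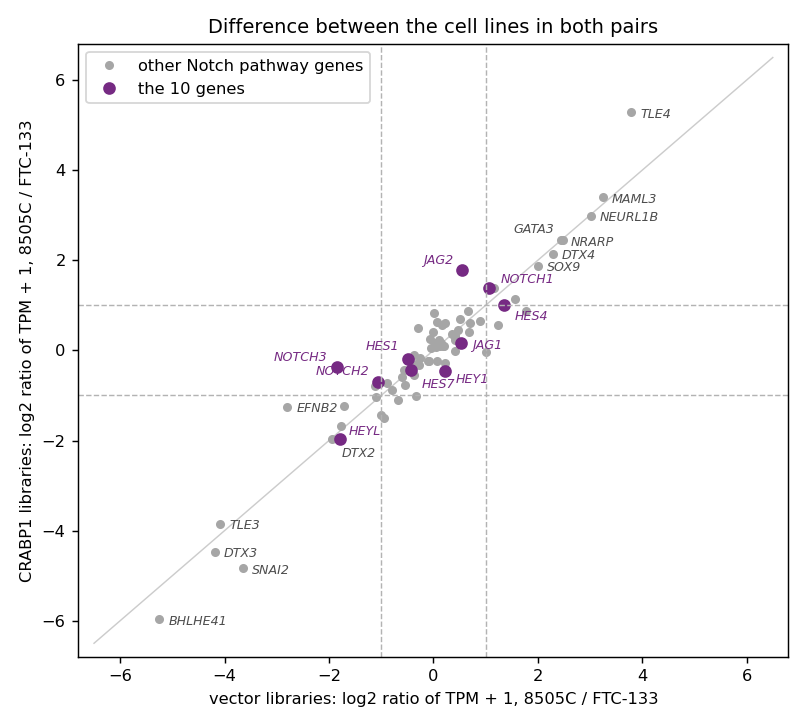
Log2 ratio of TPM + 1 of 8505C to FTC-133 in the vector libraries (horizontal) and in the CRABP1 libraries (vertical), for the 10 genes and for 68 other Notch pathway genes averaging 1 TPM or more over the libraries; dashed lines mark 2-fold. Most genes lie along the diagonal, and JAG2 and NOTCH3 lie above it.

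The rest of the pathway was taken from 82 further genes, of which 63 were measured in 8505C and 65 in FTC-133. With CRABP1, 0 of 63 were 2-fold higher and 0 lower in 8505C on TPM + 1, where 3.7% and 4.07% of all measured genes were. In FTC-133 0 of 65 were higher and 2 lower, EFNB2 and TLE4, where 6.02% and 4.92% of all measured genes were. By the plain TPM ratio among protein-coding genes with 20 reads or more, 0 of 69 were higher and 1 lower in 8505C, NOTCH4, against 1.15% and 1.86% of all such genes. In FTC-133 1 of 68 was higher, DTX1, and 5 were lower, EFNB2, TLE4, CNTN1, MFNG and GATA3, against 4.4% and 3.36%. Counting intervals lay above 1 for 11 of 69 and below 1 for 20 of 69 in 8505C, against 22.2% and 15.8%. In FTC-133 they lay above 1 for 18 of 68 and below 1 for 23 of 68, against 32.8% and 21.5%. Of 63 with 20 reads or more in each line, 3 had intervals above 1 in both, against 8.61%. For 5 of 63 the interval was above 1 in 8505C and below 1 in FTC-133, against 5.83%. The median log2 ratio was -0.02 for the 63 measured further genes in 8505C and -0.03 for the 65 in FTC-133. Over all measured genes it was 0.02 and 0.06. For the 10 genes it was 0.22 in 8505C, where 9 were measured, and 0.02 in FTC-133. EFNB2, an ephrin ligand and Notch target of arterial endothelium, was at 3.22 and 4.47 TPM in 8505C and 9.06 and 37.1 TPM in FTC-133, with CRABP1 and with vector, 4.09-fold lower in FTC-133 (3.55 to 4.73). TLE4, a corepressor that HES proteins recruit, was at 81.3 and 68.4 TPM in 8505C and 1.11 and 4.04 TPM in FTC-133 in the same order, 3.63-fold lower in FTC-133 (2.63 to 5.11). The family members TLE1 and TLE2 had ratios above 1 in FTC-133, 1.88 (1.52 to 2.34) and 1.85 (1.26 to 2.75). CNTN1, a cell adhesion protein described as a Notch ligand, was at 0.860 TPM in FTC-133 with CRABP1 and 2.16 TPM with vector, 2.51-fold lower (1.67 to 3.84), and listed at 0 in 8505C. MFNG, a glycosyltransferase of the receptors, was at 0.249 TPM in FTC-133 with CRABP1 and 1.39 TPM with vector, from about 4 and 23 reads, 5.57-fold lower with a counting interval that lay apart from 1 and reached 22.2-fold. GATA3 was 2.67-fold lower (1.14 to 6.92) and DTX1 had a ratio of 2.92 (1.10 to 9.05), both from 30 reads or fewer over the pair.

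RBPJ, through which all Notch receptors act on DNA, was at 70.4 and 68.3 TPM in 8505C with CRABP1 and with vector, a ratio of 1.03 (0.981 to 1.08). In FTC-133 it was at 49.7 TPM with CRABP1 and 83.9 TPM with vector, 1.69-fold lower (1.61 to 1.78). The coactivator MAML1 was at 39.1 and 40.0 TPM in 8505C and 25.1 and 24.3 TPM in FTC-133, with CRABP1 and with vector. The receptor protease ADAM10 had a log2 ratio of TPM + 1 of 0.07 in 8505C and -0.27 in FTC-133. The 9 genes of receptor cleavage had median log2 ratios of -0.06 in 8505C and -0.08 in FTC-133. Of these, 0 passed 2-fold with CRABP1 in either line, and most measured genes of the table did not either. NRARP, a target that feeds back on the receptor complex, was at 6.79 and 8.63 TPM in 8505C and 0.431 and 0.765 TPM in FTC-133, with CRABP1 and with vector. NOTCH4 was at 0.223 TPM from about 11 reads in 8505C with CRABP1 and 0.786 TPM from about 39 reads with vector, 3.53-fold lower (1.78 to 7.65), and at 0.428 and 0.433 TPM in FTC-133. Among the other HES and HEY genes HES6, an antagonist of HES1, was the 1 measured in both lines, at 5.45 and 3.32 TPM in 8505C and 6.59 and 4.98 TPM in FTC-133, with CRABP1 and with vector.

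Between the lines, 9 of 68 further genes were higher and 10 of 68 lower in 8505C by 2-fold in both pairs, where 7.65% and 16% of all measured genes were. Higher were TLE4, the coactivator MAML3, the ligand ubiquitin ligase NEURL1B, DTX4, NOTCH2NLC and the targets NRARP, GATA3, SOX9 and CCND1. MAML3 was at 14.4 and 13.9 TPM in 8505C and 0.459 and 0.576 TPM in FTC-133, with CRABP1 and with vector. Lower were the corepressor TLE3, DTX2, DTX3, the proteolysis genes ADAM17 and APH1B, the glycosyltransferase LFNG, and CDKN1A, EFNB2, SNAI2 and BHLHE41. TLE3 was at 0.312 and 0.202 TPM in 8505C and 18.0 and 19.4 TPM in FTC-133, with CRABP1 and with vector, the reverse of TLE4 within the same family.

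**Figure D4:**
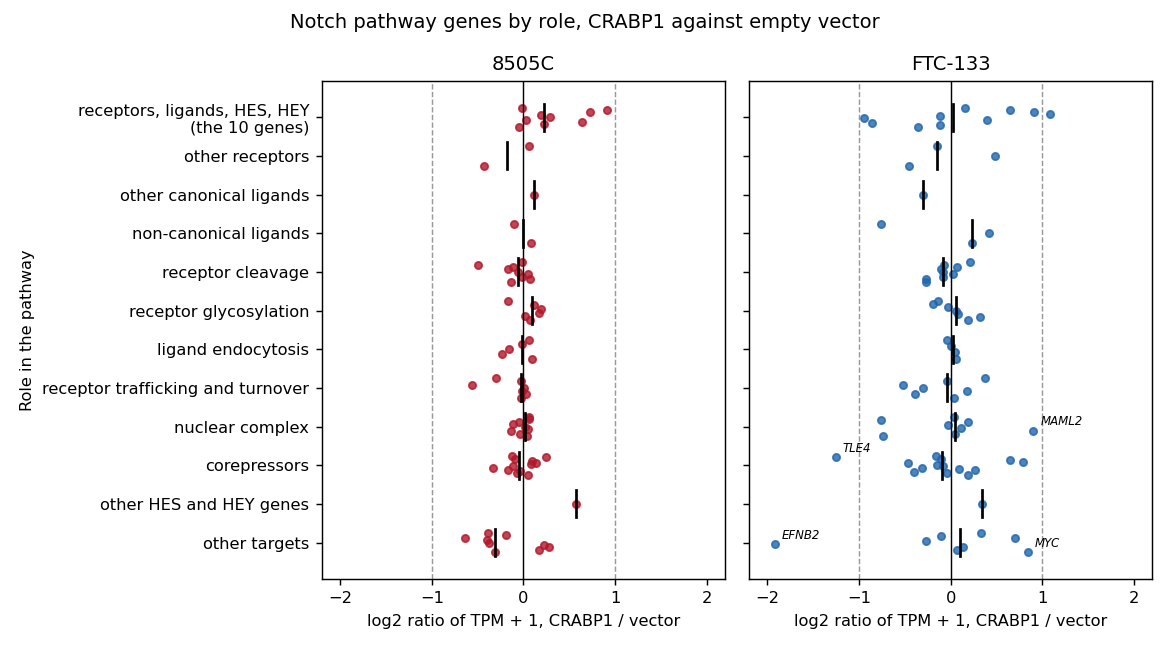
Log2 ratio of TPM + 1, CRABP1 against empty vector, for measured Notch pathway genes grouped by role, in 8505C (left) and FTC-133 (right); each point is a gene, black bars are medians and dashed lines mark 2-fold. EFNB2 and TLE4 lie past 2-fold in FTC-133 and no gene of the further lists does in 8505C.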

How the data were processed

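Total RNA of 4 libraries was sequenced on Illumina protocols, per the labels' protocols. The authors deposited 1 table of TPM values; the submitters' processing notes name FastQC, Trimmomatic 0.38, featureCounts 2.0.0 and GRCh38, while an aligner, an annotation and a strand setting were not given in the sources used here. Reads were recovered as TPM times GENCODE 29 exon length (58611 genes): 90.5% to 91.6% of values up to 50 reads lay within 0.02 of a whole number. For some of the 10 genes they did not, so read numbers are approximate. Intervals of a ratio are 95% Clopper-Pearson intervals and, like floors of 3 reads, cover counting error only. Calls used 2-fold on log2(TPM + 1) among genes averaging 1 TPM or more over the compared libraries, with no test. Members and lists were chosen with earlier results of these data known. The naming rule takes the 10 genes, further pathway genes past 2-fold with at least 20 reads, the neighbours of a gene past 2-fold in both lines, and 8 fixed ones, of which 1 is not reported here; genes named outside it were chosen after their values were seen: ISG15, DLL3, HES6 and those between 1.5-fold and 2-fold. NOTCH2NLC had no length and so no read number. Calculations used Python 3.11.15, pandas 2.3.3, NumPy 2.4.6, SciPy 1.17.1 and matplotlib 3.10.9, and were tested on simulated data.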

Additional observations from a re-analysis of the deposited data

Results flagged for a closer look

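NOTCH2, NOTCH3 and JAG2 had ratios of CRABP1 to vector on opposite sides of 1 in the lines, with counting intervals apart from 1 in each; the difference between the lines was not tested. The TPM ratio was 1.72 in 8505C and 0.523 in FTC-133 for NOTCH3, 1.26 and 0.409 for JAG2, and 1.17 and 0.919 for NOTCH2. Ordered by the smaller of the 2 lines' log2 ratios of TPM + 1, higher in 8505C and lower in FTC-133, NOTCH3 ranked 8, JAG2 155 and NOTCH2 885 of 12287 protein-coding genes. These genes were picked with their ratios known, so the ranks are a description only.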

How the results depend on the processing

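Counts of the 10 genes past 2-fold rest on few reads and on the pseudocount. In FTC-133 the count of 1 became 3 with a pseudocount of 0.1 TPM, 3 with the plain TPM ratio (an alternative chosen after seeing the data), 2 without mitochondrially encoded genes, 5 at 1.5-fold and 0 at a minimum mean of 5 TPM, where HES4 was no longer measured. In 8505C the count of 0 became 1 with a pseudocount of 0.1 TPM, 1 with the plain ratio and 3 at 1.5-fold. Between the lines 3 became 1 at a minimum mean of 5 TPM. For the further pathway genes, 2 in FTC-133 became 1 at 5 TPM and 10 at 1.5-fold, and 0 in 8505C became 1 at 1.5-fold. The cause was not tested, apart from fewer genes measured at 5 TPM and the lower threshold at 1.5-fold. Of 57 values of the 10 genes' log2 ratios under another pseudocount, median-ratio scaling or removal of mitochondrially encoded genes, 55 stayed within counting error, 2 (NOTCH2 in FTC-133) moved farther from 0, and 0 with an interval apart from 1 changed sign. The median-ratio scaling shifted ratios by -0.06 in FTC-133 and -0.02 in 8505C (log2). A fit with line as a block would have 2 pairs of libraries and 1 residual degree of freedom, and was not run because the genes were chosen with their ratios known. Leaving out a library was not possible within a line. HES4 and HES7 had 8 to 50 reads in a library, so ratios between 1.29 and 5.54 for HES7 in 8505C cannot be told apart at this depth.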

Other observations

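ISG15, an interferon-induced gene, lies next to HES4 on chromosome 1 and runs the other way, starting at position 1001138 of GRCh38 where HES4 starts at 1000172 (GENCODE 29). It was singled out after the values were seen. ISG15 was at 13.4 and 11.1 TPM in 8505C, a ratio of 1.21 (0.829 to 1.78), and at 204 and 79.2 TPM in FTC-133, a ratio of 2.57 (2.29 to 2.89), with CRABP1 and with vector. Between the lines, HES4 was higher and ISG15 lower in 8505C in both pairs.

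In FTC-133, 5 of the 65 further pathway genes were 1.5-fold higher on TPM + 1 and 5 lower, where 2598 and 1928 of 19899 measured genes were. The higher were MAML2, MYC, TLE1, TLE2 and SNAI2, and beside EFNB2 and TLE4 the lower were CNTN1, RBPJ and KAT2B; those short of 2-fold were named after their values were seen. The coactivator MAML2 was at 26.6 TPM with CRABP1 and 13.8 TPM with vector, a ratio of 1.93 (1.73 to 2.15), and the target MYC at 77.7 and 43.0 TPM, a ratio of 1.81 (1.64 to 1.98). The acetyltransferase KAT2B was at 14.1 and 24.5 TPM, 1.74-fold lower with CRABP1 (1.54 to 1.97). SNAI2, a repressor of epithelial genes, was at 45.7 and 27.6 TPM, a ratio of 1.65 (1.48 to 1.85). In 8505C the ratios were 0.909 for MAML2 (0.831 to 0.994), 1.13 for MYC (1.05 to 1.21) and 1.05 for KAT2B (0.943 to 1.16). SNAI2 averaged below 1 TPM in 8505C and had a ratio of 0.502 (0.220 to 1.08), from about 11 reads with CRABP1 and 22 with vector.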
